A study of Homo sapiens with 6 samples.

Results

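The insulin-like growth factor (IGF) axis was examined in the human bladder cancer line J82, which is an established one, through 10 genes chosen by name. They were the ligand gene IGF2, the receptor genes IGF1R and IGF2R, the adaptor gene IRS2 and the 6 binding protein genes IGFBP2 to IGFBP7. All 10 were found among the 57820 rows of the count table, and all 10 were among the 15647 genes that passed the filter on low counts. RNA-seq libraries of polyadenylated transcripts had been made from 3 samples of control cells and 3 samples of FOXC1 knockout (KO) cells, all grown in DMEM with fetal bovine serum. The KO cells carried lentiCRISPR v2, a lentiviral vector with Cas9 and a guide against FOXC1, a forkhead transcription factor. The paper describes J82 controls as vector controls, selection with puromycin, and knockout clones checked for protein by Western blotting. Neither the number of clones behind the 3 KO libraries nor separate cultures are stated, so the p-values measure the spread between these libraries, which may be technical.

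IGF2 and its relative IGF1 are small secreted proteins that activate IGF1R, a receptor tyrosine kinase close in structure to the insulin receptor. IRS2 is recruited to the active receptor and passes the signal to the PI3K and AKT kinases. IGF2R carries IGF2 to the lysosome and so removes it, while the IGFBP proteins bind the ligands outside the cell, where they can hold them back from the receptor, protect them or release them after cleavage. IGFBP6 binds IGF2 in preference to IGF1, and IGFBP7 is a distant relative with low affinity for either ligand. Signalling through this axis depends on protein outside the cell and on phosphorylation, neither of which RNA-seq measures, and serum in the medium is a further source of ligand.

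Among the 10 genes, IGFBP6 alone was called, where a call needed a Benjamini-Hochberg adjusted p under 0.05 in edgeR and a fold change over 1.3. It was 1.58-fold lower in KO than in control libraries. IGFBP3, IGFBP5 and IGFBP7 lay on the other side of zero, with log2 fold changes from 0.22 to 0.24 that did not reach the fold threshold. IGF2, both receptors, IRS2, IGFBP2 and IGFBP4 were not called. One member of 10 was therefore called lower against 8.39% of all tested genes, and 0 were called higher against 7.57%. The share of members called was thus near the background in both directions.

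A short stretch of the IGFBP6 promoter is shown because it holds the letters GTAAACA, a core motif of forkhead factors. Of the 10 members, 8 had at least 1 start site in the RefSeq promoter table, which gave 10 windows of the 250 bases before a start (3 of them for IGFBP2). IGF2 and IGFBP7 had no entry. GTAAACA, searched on both strands, was found in 1 of the 10 windows and in 2.98% of 35116 RefSeq promoter windows of the same length. The stretch of 30 bases around it reads 5′ to 3′ on the plus strand, with the motif in capitals.

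IGFBP6: caatttgggaaGTAAACAgaaactggaaag

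It lies at chr12:53097470-53097499 of GRCh38, and the motif begins 186 bases before the RefSeq start. In the GRCh37 annotation the whole window of 250 bases occurs once, at chr12:53491201-53491450, and 231 of its bases fall within exons of longer IGFBP6 transcripts. The motif lies among these exon bases. The shorter form TAAACA is part of GTAAACA, was found in no other member window, and occurs in 10.99% of all windows. The letters GGGCGG, a GC box, were found in 8 of the 10 member windows and in 42.6% of all windows. These are matches of letters and not evidence of binding.

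The targeted gene was examined first. FOXC1 (ENSG00000054598.5) was measured at 18.4, 16.9 and 19.3 CPM in the control libraries and at 24.1, 22.2 and 21.1 CPM in the KO libraries, where CPM are counts scaled to the library total, adjusted by the TMM method. It did not fall in the KO libraries but stood above control by 0.30 on the log2 scale (SE 0.091; edgeR adjusted p 0.0127), which was under the fold threshold. Without control replicate 2 the edgeR adjusted p was 0.0827. The transcript level therefore does not check the labels, and every direction given here compares libraries as they were labelled. The libraries held 18408134 to 25350908 counts. As a check of the cell type, KRT7, KRT8, KRT18 and KRT19, the keratins of simple epithelia and urothelium, were abundant, whereas the uroplakins UPK1A, UPK1B and UPK3A, which mark differentiated urothelium, were at no more than 3 counts in any library, and UPK2 reached at most 5. CDH1, KRT5 and KRT20 were also at no more than 3 counts in any library, and TP63 reached at most 9. Mean control levels were 2.09 CPM for EPCAM, 35.3 CPM for GATA3 and 124 CPM for PPARG. Of 15 epithelial markers 7 were tested, 6 of these were called lower in KO (8.39% of all tested genes) and 0 higher (7.57%). Their summed level was 3182 to 4005 CPM in control and 2491 to 2768 CPM in KO libraries. Among 5 mesenchymal markers, ZEB1 and SNAI2 were called higher, while VIM (log2 fold change 0.30), CDH2 (-0.11) and FN1 (0.0084) were not called. The summed level of this list overlapped between the groups, at 1743 to 1881 CPM in control and 1804 to 2074 CPM in KO libraries. Endothelial markers summed to 0.590 to 0.902 CPM in control and 1.55 to 1.90 CPM in KO libraries, and 1 of the 2 tested, CDH5, was called higher (0, 0 and 1 counts in control, 18, 18 and 26 counts in KO libraries). In a bulk sample, fewer cells of one kind and less RNA per cell cannot be told apart.

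The values of each gene by library were as follows. IGFBP6 (ENSG00000167779.3, chr12:53491220-53496129, plus strand) was measured at 160, 131 and 136 CPM in control libraries and at 76.8, 101 and 91.4 CPM in KO libraries, from 1412 to 3582 counts per library. Every KO value lay below every control value, and the highest KO value was separated from the lowest control value by a clear gap. Its mean of 142 ± 15.5 CPM in control compares with 89.6 ± 12 CPM in KO libraries (SD, n = 3). In edgeR the log2 difference was -0.66 (95% interval -0.84 to -0.48, adjusted p 7.55e-07). The exact permutation test, two-sided, gave p = 0.1, the smallest that 3 against 3 libraries allow. Among the 1313 genes called lower, IGFBP6 ranked 214 by p and 669 by fold change, so it was neither among the strongest nor among the weakest. Over 12 alternative settings its log2 fold change stayed between -0.75 and -0.57 and its adjusted p did not exceed 1.80e-05. Of the 7 tested epithelial markers 6 were called lower in the same libraries, for example KRT19 with a log2 fold change of -0.70 and KRT8 with -0.60. KRT7 was not called (log2 fold change -0.065, adjusted p 0.575 in edgeR). The part of these markers in the IGFBP6 result was not tested. Control replicate 1 stood apart from the other control libraries (chi-square per gene 9.15 and 7.79, against 2.73 between those) and had the highest values of IGFBP6, KRT8 and KRT19. Without it the log2 fold changes were -0.58 for IGFBP6 (edgeR adjusted p 8.86e-07), -0.47 for KRT8 and -0.60 for KRT19.

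**Figure D1:**
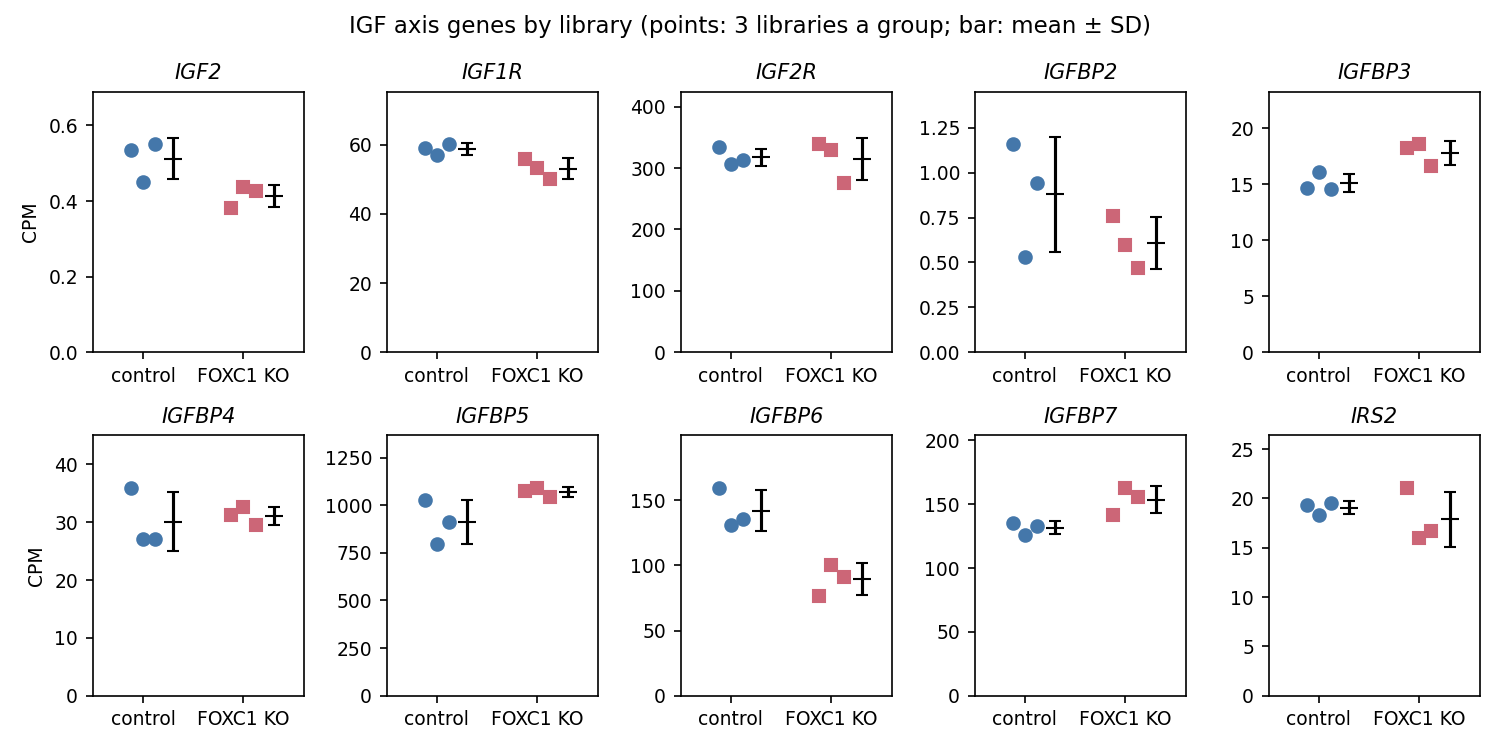
Scaled counts (CPM, linear axes from 0) of the 10 IGF axis genes, with 3 control libraries (circles) and 3 FOXC1 KO libraries (squares) per panel and the mean ± SD beside them. IGFBP6 is lower in all 3 KO libraries, at 76.8 to 101 CPM against 131 to 160 CPM, while IGF2R, IGFBP2, IGFBP4 and IRS2 overlap between the groups.

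IGFBP5 was the most abundant member. IGFBP5 (ENSG00000115461.4, chr2:217536828-217560272, minus strand) encodes a binding protein that also attaches to the extracellular matrix. It was measured at 1029, 799 and 912 CPM in control libraries and at 1076, 1093 and 1044 CPM in KO libraries. The KO values lay above the control values, but control replicate 1 came close to them. The log2 fold change was 0.23 (95% interval 0.068 to 0.39, adjusted p 0.0279 in edgeR), a difference of 1.17-fold that did not meet the fold threshold. Across 12 alternatives its adjusted p ranged from 0.000522 to 0.269, and it was not under 0.05 in 4 of the fits that left out 1 library, with the highest value reached without control replicate 2 (log2 fold change 0.14).

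IGFBP7 (ENSG00000163453.7, chr4:57896939-57976551, minus strand), which encodes a protein secreted into the matrix, gave 136, 126 and 133 CPM in control and 142, 163 and 155 CPM in KO libraries. The groups did not overlap. The log2 fold change was 0.22 (95% interval 0.078 to 0.37, adjusted p 0.0178 in edgeR), which is 1.17-fold and again under the fold threshold. Over 12 alternatives the adjusted p ran from 0.00929 to 0.0972. It was not under 0.05 in 4 of the fits that left out 1 library, and it was highest without control replicate 2. Exons of the antisense gene IGFBP7-AS1 and of POLR2B cover 18.3% of the IGFBP7 exon bases, and the strand setting of the counting was not given in the sources used here.

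IGFBP3 (ENSG00000146674.10, chr7:45951844-45961473, minus strand) encodes the main carrier of IGFs in serum. Its levels were 14.7, 16.1 and 14.6 CPM in control and 18.2, 18.6 and 16.6 CPM in KO libraries. The groups were separated by a narrow gap, and the log2 fold change of 0.24 (95% interval 0.043 to 0.43) had an adjusted p of 0.0589 in edgeR. IGFBP4 (ENSG00000141753.5, chr17:38599702-38613977, plus strand) encodes a binding protein that is released from its ligand by the protease PAPPA. It was measured at 36.0, 27.1 and 27.2 CPM in control and at 31.2, 32.6 and 29.5 CPM in KO libraries. The groups overlapped because control replicate 1 was the highest of all 6 libraries. The log2 fold change of 0.050 (95% interval -0.15 to 0.25, adjusted p 0.743 in edgeR) turned to -0.024 without control replicate 2 and to -0.019 without control replicate 3. It was 0.19 without control replicate 1 and 0.014 without KO replicate 2, with adjusted p of 0.0850 and 0.943 in edgeR.

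IGFBP2 (ENSG00000115457.5, chr2:217497551-217529159, plus strand) lies next to IGFBP5, in a tail-to-tail pair. It had only 13 to 26 counts in control and 11 to 15 counts in KO libraries, or 1.16, 0.533 and 0.944 CPM against 0.762, 0.595 and 0.468 CPM. These values overlapped. The log2 fold change of -0.54 had a wide interval (95% interval -1.20 to 0.11, adjusted p 0.214 in edgeR), which held both zero and the value of IGFBP6. It was -0.81 without control replicate 2 and -0.32 without control replicate 1 (edgeR adjusted p 0.0738 and 0.546).

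The ligand gene was close to the limit of detection. IGF2 (ENSG00000167244.13, chr11:2150342-2179621, minus strand) had 12, 11 and 14 counts in control and 7, 11 and 10 counts in KO libraries. In CPM this gave 0.535, 0.451 and 0.551 against 0.381, 0.437 and 0.425, values that did not overlap, yet the log2 fold change of -0.29 had a 95% interval from -1.02 to 0.43 (adjusted p 0.578 in edgeR). Of the IGF2 exon bases, 44.4% are also covered by exons of other annotated genes, among them the read-through gene INS-IGF2 and the antisense gene IGF2-AS, both listed at 0 counts in all 6 libraries. How the counting treated reads in shared exons was not stated, so the IGF2 counts may be incomplete. The other ligand genes were no higher. IGF1 had at most 1 count in any library and INS had 0.

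The receptor genes were well measured. IGF1R (ENSG00000140443.9, chr15:99191768-99507759, plus strand) gave 59.1, 57.0 and 60.2 CPM in control and 56.0, 53.2 and 50.1 CPM in KO libraries. The KO values were all below the control values, by a small margin. For IGF1R the log2 fold change of -0.15 (95% interval -0.30 to 0.0076) had an adjusted p of 0.147 in edgeR. IGF2R (ENSG00000197081.8, chr6:160390114-160534539, plus strand) gave 334, 307 and 313 CPM in control and 339, 330 and 276 CPM in KO libraries. KO replicate 3 was the lowest and KO replicate 1 the highest of the 6, and the log2 fold change was -0.013 (95% interval -0.17 to 0.14, adjusted p 0.924 in edgeR). The sign of this value turned without KO replicate 3 (0.068) and without control replicate 1 (0.015). Both intervals lie within the 1.3-fold threshold on either side.

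IRS2 (ENSG00000185950.7, chr13:110405042-110438930, minus strand), the adaptor, was measured at 19.4, 18.3 and 19.6 CPM in control and at 21.1, 16.0 and 16.7 CPM in KO libraries. KO replicate 1 was the highest of all and the other two KO libraries were the lowest, so the groups overlapped. For IRS2 the log2 fold change of -0.099 (95% interval -0.30 to 0.11) had an adjusted p of 0.498 in edgeR. It was -0.23 without KO replicate 1, -0.020 without KO replicate 2 and -0.059 without KO replicate 3.

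**Figure D2:**
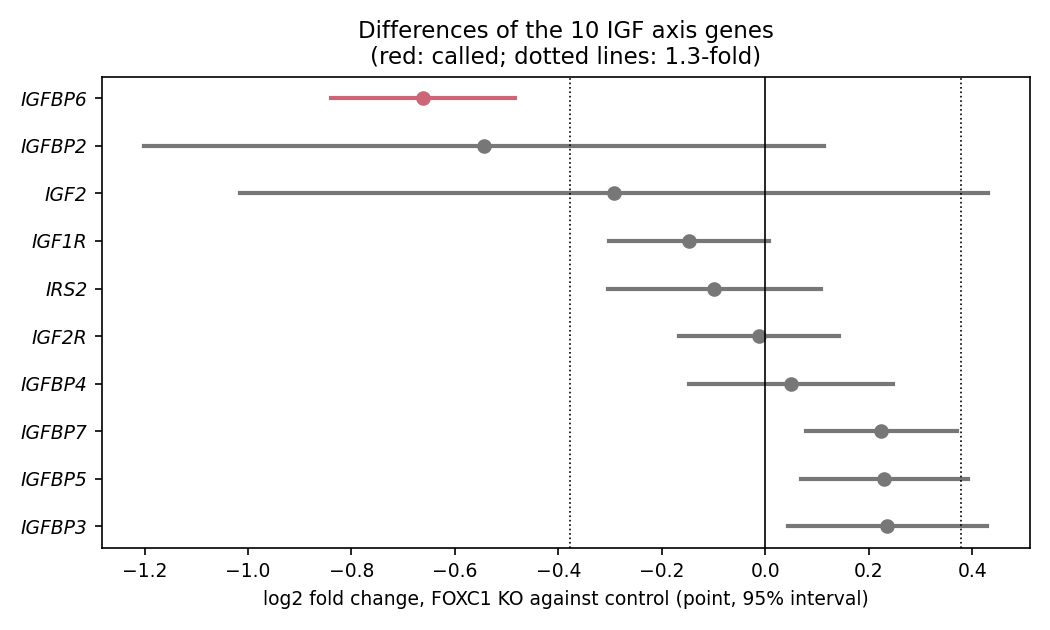
Log2 fold changes of the 10 IGF axis genes between FOXC1 KO and control libraries (x axis), with points for the estimate, lines for the 95% interval from the edgeR fit, and dotted lines at 1.3-fold. The interval of IGFBP6 (-0.84 to -0.48) lies wholly beyond the lower line, those of IGFBP3, IGFBP5 and IGFBP7 lie above zero, and those of IGFBP2 and IGF2 are the widest.

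Over the 10 genes, 6 log2 fold changes were below and 4 above zero, with a median of -0.056 against -0.00084 over all tested genes. At an adjusted p under 0.05 without the fold threshold, 1 member was lower (14.3% of all tested genes) and 2 were higher (15.2% of all tested genes), or 3 in either direction (29.4%). The 3 control and 3 KO values did not overlap for 6 of the 10 members, 3 in each direction, and for 41.3% of all tested genes. An unadjusted edgeR p under 0.05 was found for 4 members and for 39.8% of all tested genes.

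Levels of different genes were compared per kilobase of exon, as CPM divided by the length of the union of the exons. In control libraries IGFBP5 stood at 141 ± 17.8, IGFBP6 at 106 ± 11.5 and IGFBP7 at 68.1 ± 2.57 CPM per kilobase (SD, n = 3). By their mean over all 6 libraries these 3 genes ranked 205, 430 and 522 of 55538 genes with a known length. They were followed by IGF2R at 14.1 ± 0.615 and IGFBP4 at 13.7 ± 2.32 CPM per kilobase, which did not differ beyond their spread. IGF1R (4.22 ± 0.117), IGFBP3 (3.31 ± 0.184) and IRS2 (2.34 ± 0.0842) came next, and IGFBP2 (0.185 ± 0.0672) and IGF2 (0.0717 ± 0.00753) were far lower. In KO libraries the order changed in the upper part, where IGFBP7 at 79.5 ± 5.54 stood above IGFBP6 at 66.6 ± 8.92 CPM per kilobase. In the middle, IGF1R at 3.81 ± 0.211 and IGFBP3 at 3.89 ± 0.232 CPM per kilobase no longer differed beyond their spread.

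To describe the makeup of the binding protein transcripts, each gene was expressed as a percent of the sum over IGFBP1 to IGFBP7 in its own library, a ratio that does not depend on scaling between libraries. IGFBP6 made up 32.3, 32.2 and 30.9% of the sum in control and 18.1, 21.5 and 20.8% in KO libraries. IGFBP5 made up 43.2, 40.9 and 43.2% in control and 52.7, 48.6 and 49.3% in KO libraries. IGFBP7 made up 19.1, 21.6 and 21.1% in control and 23.3, 24.3 and 24.6% in KO libraries. The share of IGFBP6 was thus lower, and those of IGFBP5 and IGFBP7 higher, in every KO library than in every control library. Because all shares of a library are parts of the same sum, a lower share of IGFBP6 by itself raises the others. The higher shares are therefore not independent of the lower one. In CPM, IGFBP5 and IGFBP7 were themselves 1.17-fold higher in KO libraries, under the fold threshold. IGFBP3 and IGFBP4 together with the scarce IGFBP1 and IGFBP2 filled the small rest, and their shares overlapped between the groups. The summed level itself did not separate the groups, at 332 ± 33.4 CPM per kilobase in control and 330 ± 16.3 CPM per kilobase in KO libraries (SD, n = 3).

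The ratio of IGFBP6 to IGFBP7 per kilobase was 1.69, 1.49 and 1.46 in control and 0.776, 0.885 and 0.843 in KO libraries. IGFBP6 exceeded IGFBP7 in 3 of 3 control and in 0 of 3 KO libraries, and these counts were the same with the longest transcript as the length and with no length scaling. With no length scaling the margin was narrow in control replicate 2 (11.9 against 11.5% of the sum) and control replicate 3 (11.1 against 10.9%). The ratio of IGF1R to INSR, the insulin receptor gene, was 2.70, 2.53 and 2.55 in control and 2.02, 2.32 and 2.20 in KO libraries. These ratios did not overlap, although neither gene was called (INSR log2 fold change 0.11, adjusted p 0.439 in edgeR). Groups did not overlap for 41.3% of single tested genes, and the share among ratios of gene pairs was not computed. The ratio of IGF2R to IGF1R overlapped between the groups, at 3.34 ± 0.139 in control and 3.65 ± 0.226 in KO libraries (SD, n = 3).

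**Figure D3:**
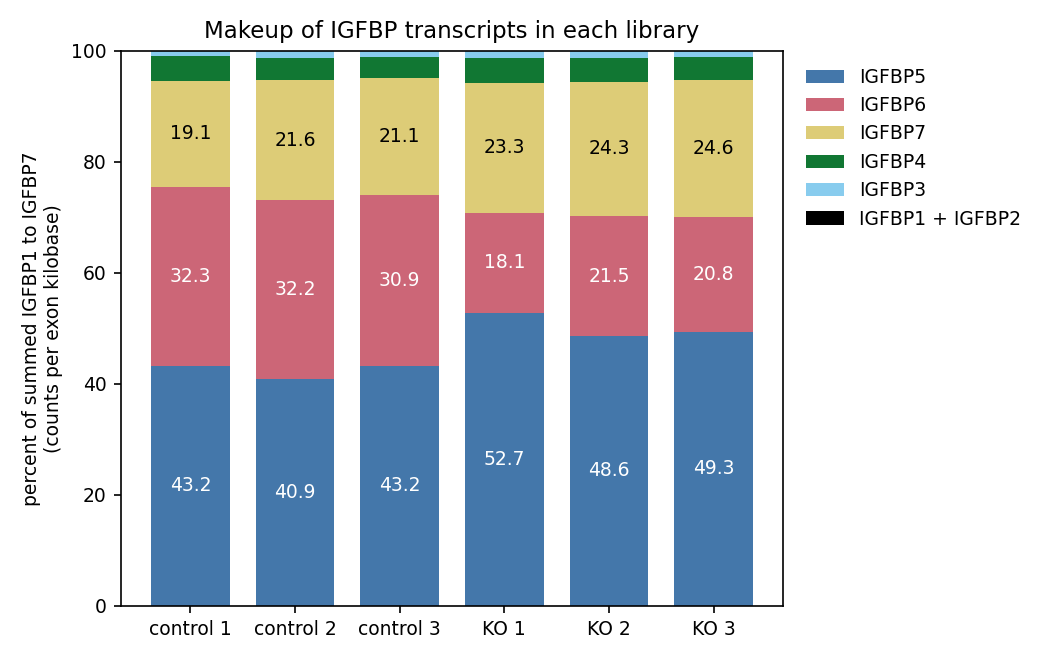
Makeup of the IGFBP transcripts in each of the 6 libraries, as stacked percent (y axis) of the summed counts per exon kilobase of IGFBP1 to IGFBP7. IGFBP6 takes 30.9 to 32.3% of the sum in control and 18.1 to 21.5% in KO libraries. The shares of IGFBP5 and IGFBP7 are higher in KO libraries, and all shares of a library are parts of the same sum.

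Other genes of the axis were then taken from 8 lists, which hold 71 genes besides the members. Of these, 70 matched a row of the table (all but TXNIP) and 57 were tested. Of the 57, 5 were called lower (8.77%, against 8.39% of all tested genes) and 7 higher (12.3%, against 7.57%), and their median log2 fold change was -0.0088. Each list is described here by its counts and median only.

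Among ligand genes only IGF2 was tested. Among receptor genes 3 of 4 were tested and 0 were called. Among binding proteins 7 of 9 were tested, with IGFBP6 the single call and a list median of 0.050. IGFBPL1 was the only tested gene of that list besides the members, and IGFBP1, at 4 to 12 counts per library, was not tested.

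The proteases that cleave IGFBP proteins, and the inhibitors of these proteases, had 7 tested genes of 9, 1 lower and 1 higher, with a median log2 fold change of -0.026. STC1, a secreted glycoprotein that inhibits PAPPA, rose from 34.5, 36.8 and 37.7 CPM in control to 58.6, 50.1 and 57.7 CPM in KO libraries. This was a log2 difference of 0.61 (edgeR adjusted p 1.02e-06, SE 0.081). Its relative STC2 had a log2 fold change of 0.33 (adjusted p 0.000477 in edgeR) and stayed under the fold threshold, and PAPPA itself had -0.026 (adjusted p 0.914). ADAM12, a metalloprotease that cleaves IGFBP3 and IGFBP5, fell from 39.1, 37.5 and 34.5 to 18.6, 17.9 and 17.7 CPM, which is 2.05-fold (log2 fold change -1.03, SE 0.086, adjusted p 1.32e-10 in edgeR). The values of both called genes were widely separated between the groups. By adjusted p alone, 3 genes of this list were lower and 3 higher, against 14.3% and 15.2% of all tested genes. Besides STC1, STC2 and ADAM12 these were CTSD (log2 fold change -0.33), ADAM9 (-0.23) and HTRA1 (0.28), all under the fold threshold. Their adjusted p in edgeR was 0.00324, 0.0246 and 0.00595. PAPPA2, not tested, had 0 counts in the 3 control libraries and 5 to 7 counts in KO libraries.

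Of the receptor adaptors and substrates 9 of 11 were tested, with 1 lower, 1 higher and a median of 0.076. GRB10, an adaptor that dampens signalling from the insulin and IGF1 receptors, rose from 8.88, 7.09 and 8.46 CPM in control to 15.9, 18.3 and 17.6 CPM in KO libraries, or 2.13-fold (log2 fold change 1.09, SE 0.11, adjusted p 3.82e-09 in edgeR). Every KO value was well above every control value. DOK4, a substrate of the insulin receptor, was called lower with a log2 fold change of -0.44 (adjusted p 0.0314 in edgeR), but this call did not hold in 4 of 12 alternatives. Its adjusted p was 0.127 with DESeq2, 0.200 without control replicate 1, 0.169 without KO replicate 2 and 0.0591 without KO replicate 3. IRS1, the close relative of IRS2, had a log2 fold change of -0.19 (adjusted p 0.0567 in edgeR).

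Of the PI3K, AKT and mTOR genes, 21 of 22 were tested, with 0 lower, 2 higher and a median of -0.018. PIK3CD, a catalytic subunit of PI3K best known from leukocytes, rose from 18.7, 14.6 and 14.2 to 40.2, 36.2 and 33.5 CPM (log2 fold change 1.21, SE 0.10, adjusted p 1.19e-10 in edgeR). PIK3R3, a regulatory subunit, rose from 52.7, 50.4 and 51.4 to 68.9, 71.2 and 70.8 CPM (log2 fold change 0.45, SE 0.073, adjusted p 2.03e-05). In both genes the groups were far apart. Among 5 leukocyte markers CD14 alone was tested and was higher in KO (log2 fold change 0.62), CD3E had 0 counts in all libraries, and the summed level of the list was 3.32 to 4.24 CPM in control and 5.24 to 6.17 CPM in KO libraries. The part of such cells in the PIK3CD result was not tested.

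Of the FOXO factors and their classical targets, 15 of 17 were tested, with 2 lower, 1 higher and a median of -0.018. FOXO1, a forkhead factor that AKT keeps out of the nucleus, fell from 7.94, 6.64 and 8.26 to 2.72, 3.06 and 2.76 CPM, which is 2.66-fold (log2 fold change -1.41, SE 0.14, adjusted p 4.13e-09 in edgeR). PDK4, a kinase that turns off pyruvate dehydrogenase, fell as well (log2 fold change -0.89, SE 0.15, adjusted p 2.97e-05), and TRIB1, a pseudokinase, rose (log2 fold change 0.54, SE 0.078, adjusted p 3.72e-06). IRS2 and INSR, which are on this list too, were not called.

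The IGF2 mRNA binding proteins and the imprinted genes around IGF2 had 6 of 8 tested, 1 lower, 2 higher and a median of 0.32. H19, a noncoding RNA whose imprinting control region is shared with IGF2, fell from 2.95, 2.46 and 1.89 to 0.707, 0.595 and 0.340 CPM (log2 fold change -2.16, SE 0.27, adjusted p 2.54e-07 in edgeR). Its levels were low but did not overlap. CDKN1C, an imprinted inhibitor of the cell cycle, rose from 3.97, 2.71 and 3.46 to 5.66, 5.99 and 5.57 CPM (log2 fold change 0.77, SE 0.14, adjusted p 0.000147). IGF2BP2, an RNA-binding protein named after IGF2 mRNA, rose from 91.1, 84.7 and 86.9 to 128, 120 and 126 CPM (log2 fold change 0.51, SE 0.070, adjusted p 1.91e-06), with no overlap between groups.

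**Figure D4:**
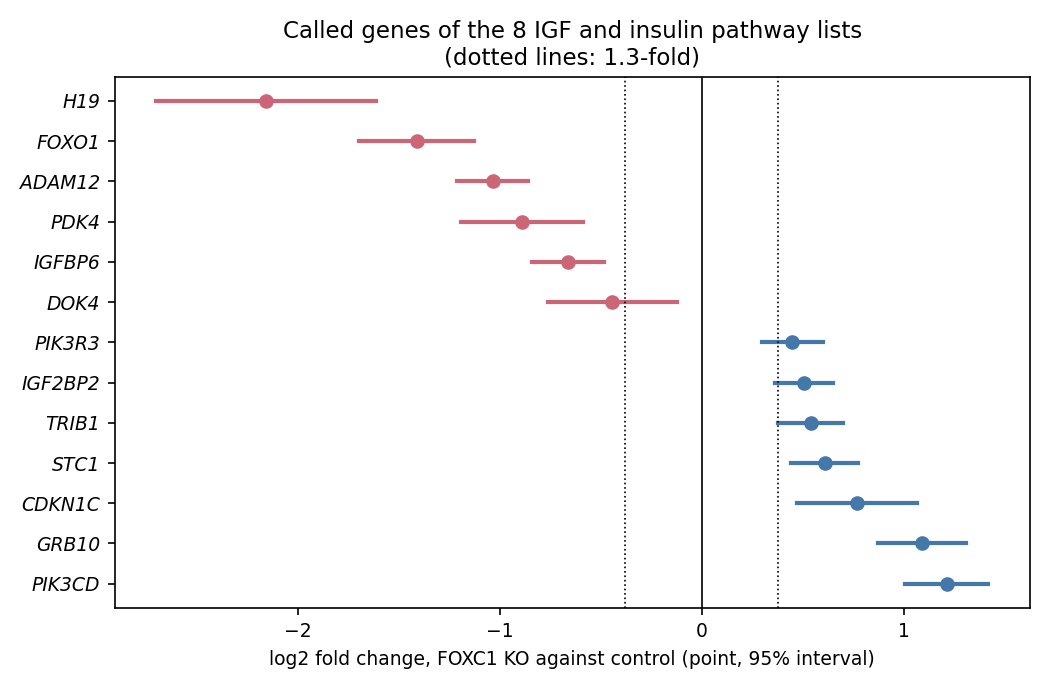
Log2 fold changes between FOXC1 KO and control libraries (x axis) for the 13 called genes of the 8 pathway lists, with 95% intervals as lines, lower genes in red and higher genes in blue, and dotted lines at 1.3-fold. H19 and FOXO1 lie furthest to the left and PIK3CD and GRB10 furthest to the right, while the intervals of DOK4, PIK3R3 and IGF2BP2 reach across a dotted line.

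The genes beside the members were also read. The nearest tested genes of IGFBP6 were SPRYD3 (log2 fold change 0.15, adjusted p 0.257 in edgeR) on one side and CSAD (-0.36, adjusted p 0.0307, under the fold threshold) on the other, and neither was called. Of the 40 tested genes that start within 1000 kb of IGFBP6, a window set after the values were seen, 7 were called lower and 2 higher, 32 were below zero and the median log2 fold change was -0.16. Over all tested genes 8.39% were called lower and 7.57% higher, with a median of -0.00084. Within 500 kb 4 of 21 were lower and 0 higher. The 4 were KRT8 (-0.60) and KRT18 (-0.51), which encode the keratin pair of simple epithelia, TNS2-AS1 (-0.57) and RARG (-0.59), a retinoic acid receptor gene. The same windows of 1000 kb around the other 9 members held between 5 and 31 tested genes each, with 0 to 4 called lower and 0 to 2 called higher. Around IGF2, 4 of 23 tested genes were called lower and 1 higher, 18 were below zero and the median was -0.17. Within 500 kb of IGF2, 3 of 10 were called lower. A window of mostly lower genes was therefore not particular to IGFBP6.

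**Figure D5:**
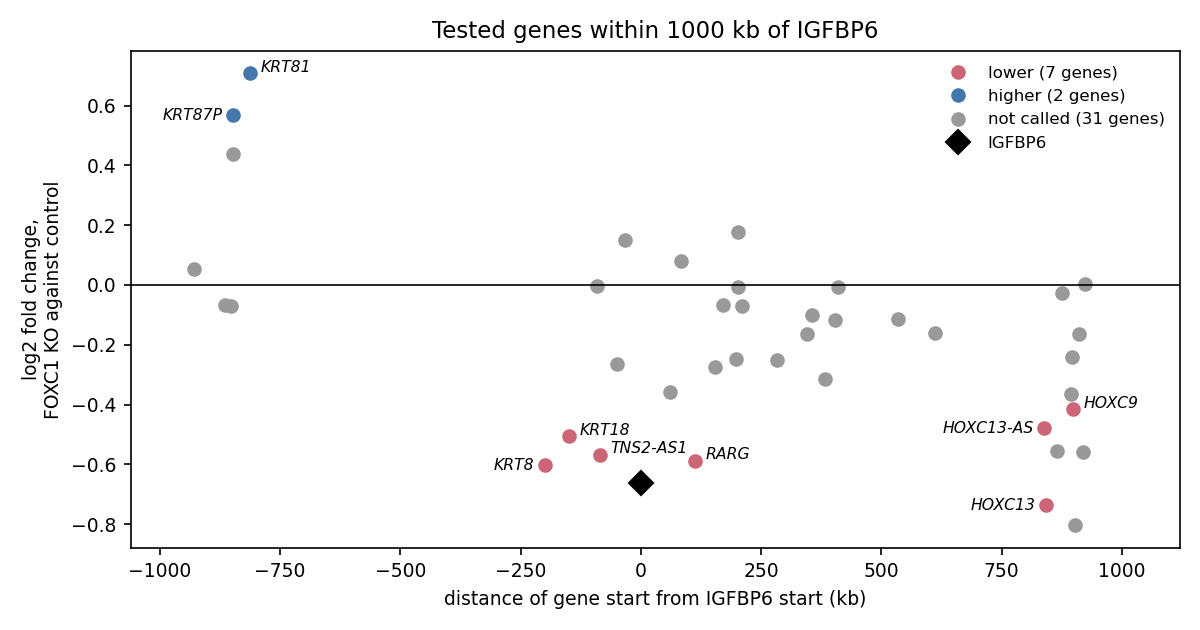
Log2 fold change (y axis) of the 40 tested genes that start within 1000 kb of IGFBP6, against the distance of their start from that of IGFBP6 (x axis, kb), with genes called lower in red, higher in blue and the rest in grey. Most points lie below zero (32 of 40), and KRT8, KRT18, TNS2-AS1 and RARG, the called genes nearest to IGFBP6 (black diamond), lie at -0.60 to -0.51.

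Finally, the genes whose pattern over the 6 libraries was most like that of IGFBP6 were named, by the root mean square difference of log2 CPM after centring each gene, among 13337 other tested genes whose mean reached 1 CPM. The smallest differences were those of MDK (0.043), which encodes the secreted growth factor midkine, UCP2 (0.051), a mitochondrial carrier, and CYBA (0.052), a subunit of NADPH oxidase. Their log2 fold changes were -0.62, -0.59 and -0.58. The measure follows the difference between groups as well as the spread within them.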

How the data were processed

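Counts were analysed from 6 RNA-seq libraries of J82 cells, grouped by sample title as control (3) and FOXC1 KO (3), and each column of the table matched 1 title. The deposited values are raw read counts per gene, for which the authors aligned paired reads to hg19 with STAR and assigned them to GENCODE version 19 genes with featureCounts. Versions of these tools and the settings for strand and multiply mapped reads were not given in the sources used here. The table held 0 columns of other samples, and replicates were not pooled.

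Symbols, GRCh37 coordinates and exon lengths came from GENCODE version 44 mapped to GRCh37, the assembly of hg19, and 55538 identifiers (96.1%) matched. Promoter sequence came from RefSeq on GRCh38.p14. Genes were kept with filterByExpr and tested by edgeR 4.0.16 in R 4.3.3 (quasi-likelihood F test, robust, TMM scaling), with group as the only term. The study used DESeq2 (here version 1.42.0, an alternative) with the same thresholds. Adjusted p-values cover all 15647 tested genes. Standard errors were derived from the F statistic, and intervals use its degrees of freedom. The procedure was tested on simulated counts.

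The members, lists and tests were chosen with earlier results of these data known. Named genes are the members, FOXC1, at most 6 called genes per list, the tested neighbours of called members and the 3 genes most like the member with the smallest p. Others were named after their values were seen.

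As alternatives, the fit was repeated with DESeq2, with RLE or plain library-size scaling, without the low-count filter or with one at 50 counts on average, with replicate as a blocking term, and with 1 library removed each time. Other fold thresholds and gene lengths were tried too. Libraries of a group differed by more than sampling noise (chi-square per gene 2.73 to 9.15).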

Additional observations from a re-analysis of the deposited data

How the results depend on the processing

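IGFBP6 was called lower under each of the 12 other settings of tool, scaling, filter and libraries, with log2 fold changes from -0.75 to -0.57 in the fits that each left out 1 library, and it was the single member called in all of them. With a threshold of more than 2-fold 0 members were lower, and with no fold threshold 2 members (IGFBP5 and IGFBP7) were higher. Over all tested genes these thresholds gave 321 lower and 316 higher, and 2233 lower and 2372 higher. For the other pathway genes they gave 3 lower and 2 higher, and 13 lower and 13 higher. In the fits that each left out 1 library, IGF2R ranged from -0.072 to 0.068 and IGFBP4 from -0.024 to 0.19 on the log2 scale, so neither has a stable direction. For the 19 further genes recomputed under these settings 223 values kept their direction and call, and 4, all of DOK4, lost the call.

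Gene length moved the shares of the binding protein sum. With the longest transcript as length, IGFBP5 held 38.5% in control and 45.7% in KO libraries and IGFBP7 24.4% and 28.5%. With no length scaling IGFBP5 held 74.0% and 78.5%, IGFBP6 11.5% and 6.56%, and IGFBP7 10.7% and 11.2%, where the IGFBP7 shares overlapped between groups. The lengths come from a later annotation than the counts.

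Libraries of the same replicate number did not deviate together (correlations of deviations from group means -0.027, -0.072 and 0.050), and with the number as a block IGFBP6 had a log2 fold change of -0.67, with 1351 lower and 1200 higher genes in all, and the block changed no call among the members. Counts of 7 to 26 per library limit what can be said of IGF2 and IGFBP2. These genes and H19 were not tested when a mean of at least 50 counts was asked for.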
